A study of Mus musculus with 26 samples.

Results

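Cocaine intake that did not escalate was compared with saline intake, both without withdrawal, in ribosome-bound RNA of D2 neurons of the mouse accumbens nucleus. The comparison took the count tables whose titles name nonescalating cocaine without withdrawal (5 libraries, numbers 1810 to 1814) and those named saline without withdrawal (3 libraries, numbers 1806, 1808 and 1809), which makes 8 of the 26 libraries deposited for the study. All mice of both groups carried the Drd2-TRAP transgene of line CP101 on an FVB/N-Swiss Webster background crossed to C57BL/6 for at least 9 generations. Nonescalating mice had taken cocaine by long-access intravenous self-administration, and saline mice had taken saline in the same way. Labels conflict on 1 point: for nonescalating libraries the description mentions withdrawal although the title gives none, and grouping went by title. Nothing in the labels says whether 1 library is 1 animal, so errors and p-values measure the spread between libraries, which may be partly technical.

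In the Drd2-TRAP line a green fluorescent protein tag sits on ribosomal protein L10a and is made wherever the Drd2 promoter is active, so that an antibody against the tag pulls down messages being translated in those cells. In the accumbens they are mainly medium spiny neurons of the indirect pathway, which express the dopamine D2 receptor, the adenosine receptor encoded by Adora2a and the opioid precursor proenkephalin, and also cholinergic interneurons. Cocaine blocks the dopamine transporter, and dopamine acting on D2 receptors lowers cyclic AMP signalling in these cells. RNA of cells without the tag can reach such a pulldown as carry-over, and fewer cells of a type and less RNA per cell cannot be told apart in bulk libraries.

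The nonescalating libraries held 1.90M to 9.71M counts in genes and the saline libraries 3.14M to 9.495M, where M stands for 1e6. A total of 3 counts, used here as the detection floor of 1 library, corresponded to 0.311 to 1.59 CPM (counts scaled to a library of 1e6 counts) in nonescalating and 0.318 to 0.965 CPM in saline libraries, for counting error only. Of the 31735 genes listed in every file, 13026 had 10 or more counts in at least 3 of the 8 libraries and were tested. Pearson correlations of log2 CPM over these genes were 0.614 to 0.788 within the nonescalating group, 0.582 to 0.729 within the saline group and 0.586 to 0.832 between groups, so libraries of 1 group were no more alike than libraries of different groups.

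The pulldown markers were abundant in 7 of the 8 libraries and low in 1. Drd2, which encodes the D2 receptor, stood at 2539, 1245, 2155, 247 and 2006 CPM in nonescalating replicates 1 to 5, against 2115, 2820 and 1407 CPM in saline replicates 1, 3 and 4. The low value belongs to nonescalating replicate 4, library 1813. It lies under the level in total RNA, which was 381 CPM in the nonescalating input and 299 CPM in the saline input, while the other 7 libraries exceed both inputs. Drd2 averaged 1638 ± 909 CPM in nonescalating and 2114 ± 707 CPM in saline libraries (SD), and an exact two-sided permutation test over the 56 arrangements of the 8 libraries gave p = 0.482, where 0.0179 is the smallest p this design allows. The log2 fold change of Drd2 was -0.37 with all libraries, -0.09 without library 1813 and -0.10 without saline replicate 3.

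Library 1813 had low levels of the messages that define D2 medium spiny neurons. Adora2a had 825, 649, 669, 61.8 and 367 CPM in nonescalating replicates 1 to 5, against 483, 888 and 310 CPM in saline replicates. Penk, proenkephalin, had 4613, 1607, 3574, 344 and 2009 CPM in nonescalating and 1625, 5468 and 1723 CPM in saline replicates. In both genes library 1813 is the lowest of the 8 by a wide margin. Gpr6, an orphan receptor enriched in D2 neurons, had 0 counts in library 1813, below a floor of 1.24 CPM, and 23.7 to 139 CPM in the other 7. Sp9, a transcription factor that D2 neurons need in development, had 6.48 CPM there and 43.3 to 238 CPM elsewhere.

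By count, library 1813 was below all 7 others in 7 of the 9 D2 neuron markers and 16 of the 17 markers shared by all medium spiny neurons, against 1743 of the 13026 genes tested. For the D1 neuron markers the count was 0 of 9. Drd1 stood at 13.7 CPM in library 1813, close to the 13.02 CPM of nonescalating replicate 3 and the 18.2 CPM of replicate 2. Relative to the median of the other 4 nonescalating libraries, library 1813 differed by a median of -2.98 log2 units over D2 markers and -1.72 units over shared markers, while the median over all genes tested was 0.13. It was also the lowest of 8 for 29 of 77 oxidative phosphorylation genes, with a median difference of -0.89 units, and for 14 of 26 synaptic vesicle genes, with a median of -1.12 units.

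Genes more than 4-fold below every other library, with at least 10 CPM in each of the others, numbered 55 in library 1813. They include 5 of the 9 D2 markers (Drd2, Adora2a, Penk, Gpr6 and Sp9) and 1 shared marker, Ppp1r1b, which encodes the cAMP-regulated phosphatase inhibitor DARPP-32. Also among them are Hpca, the calcium sensor hippocalcin, with 156 CPM against 1186 to 3691 CPM elsewhere, Scn4b, a sodium channel beta subunit, with 27.5 CPM against 201 to 698 CPM, and Egr3, an activity-regulated transcription factor, with 10.7 CPM against 74.8 to 140 CPM. These genes were picked after their values were seen. In the other 7 libraries no gene of the D2 or shared medium spiny neuron lists was set apart in this way. Markers that were lowest in library 1813 could not be, so this says little about those libraries.

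Glial and nuclear RNA was high in the same library. Malat1, a noncoding RNA that stays in the nucleus, had 78188 CPM in library 1813 and 7533 to 35936 CPM in the other 7. Its share of records in no feature was 62.5%, against 29.7% to 60.2% in the others, and its 50 most abundant genes took 25.1% of counts, against 16.02% to 20.1%. For 10 of 14 astrocyte, 5 of 13 oligodendrocyte and 3 of 8 microglia markers it was the highest of 8. Over all genes tested, it was the highest for 1698 of 13026. Summed astrocyte markers were 848 to 3751 CPM in nonescalating and 1394 to 2840 CPM in saline libraries, with Gjb6 and Ntsr2 at 0 counts in at least 1 library, and summed oligodendrocyte markers were 418 to 3615 CPM in nonescalating and 495 to 3046 CPM in saline libraries, with Mog, Cldn11, Opalin, Ermn and Sox10 at 0 in at least 1. The highest nonescalating sum is that of library 1813 in both lists. What made this library differ was not tested.

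**Figure D1:**
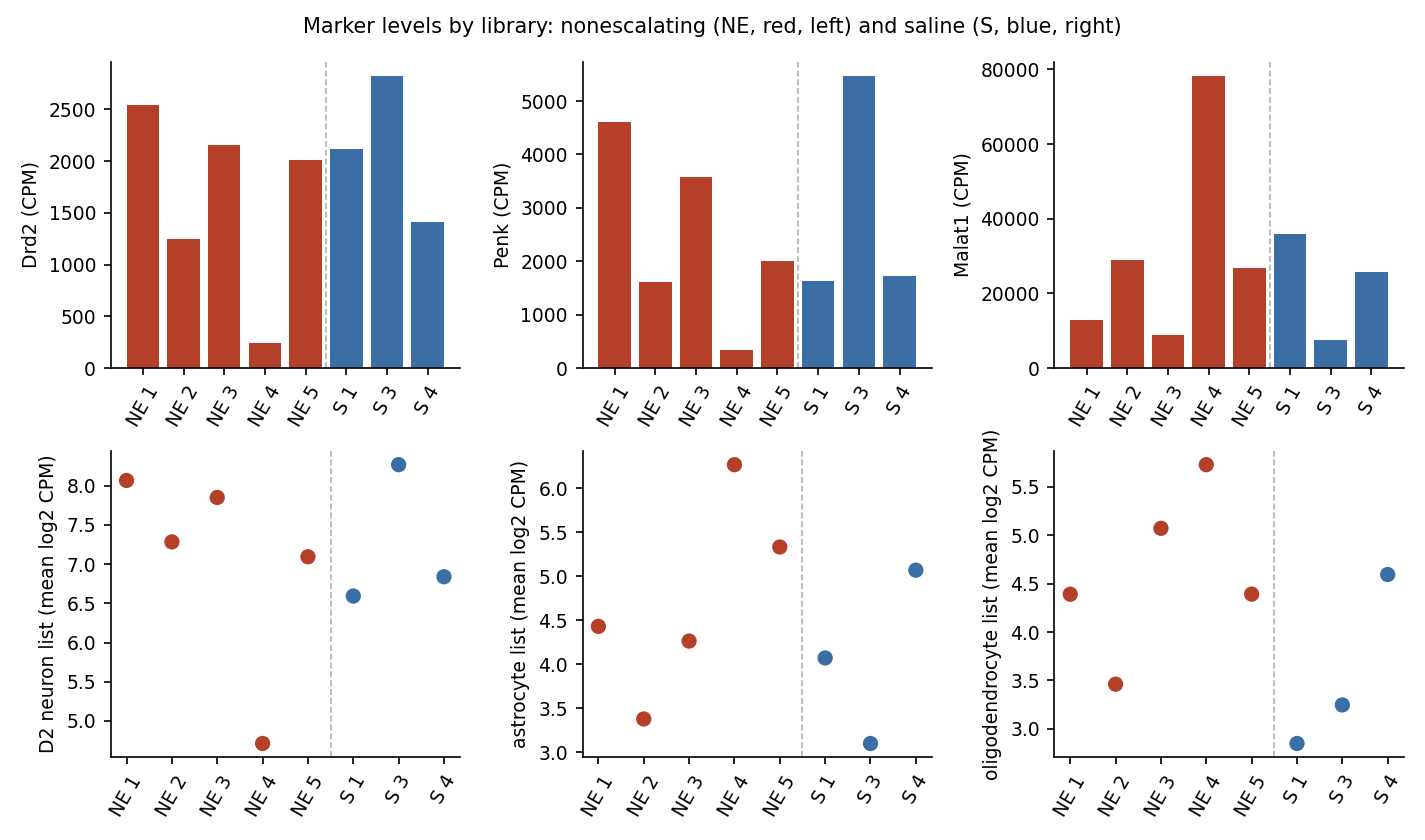
Levels in the 8 libraries, with nonescalating replicates 1 to 5 (NE, red) left of saline replicates 1, 3 and 4 (S, blue): CPM of Drd2, Penk and Malat1 as bars, and mean log2 CPM of the D2 neuron, astrocyte and oligodendrocyte marker lists as points. Nonescalating replicate 4, library 1813, is lowest for Drd2 (247 CPM), Penk (344 CPM) and the D2 list, and highest for Malat1 and both glial lists.

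Other libraries stand apart by other genes. Saline replicate 1, library 1806, exceeded every other library more than 4-fold in 197 genes and lay more than 4-fold below every other in 149, against 51 and 55 genes for library 1813. The same counts were 69 and 124 for nonescalating replicate 3 and 47 and 139 for saline replicate 3. The Drd2 level of saline replicate 1, 2115 CPM, lay within the range of the other libraries. Csf1r, the colony-stimulating factor receptor of microglia, was at 413 CPM in saline replicate 1 and at 2.86 to 47.3 CPM in the other 7, and Psmb9, an interferon-induced proteasome subunit, was at 288 CPM and at 0 to 12.03 CPM. Since saline has 3 libraries, each weighs more in the comparison than a nonescalating library does.

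Across genes, nonescalating cocaine and saline were not separated by the main test. By edgeR's quasi-likelihood fit, 0 of 13026 genes (0%) had a Benjamini-Hochberg adjusted p under 0.05, and the smallest adjusted p was 0.439. At an unadjusted p under 0.05, 265 genes were higher (2.03%) and 372 lower (2.86%) in nonescalating libraries. Together these 637 genes did not exceed the share of 0.05 expected at this threshold with no difference between groups. Of the higher ones, 14 had 0 counts in all 3 saline libraries, while no tested gene had 0 in all 5 nonescalating libraries. The count filter favours this contrast. A gene at 0 in saline could pass through any 3 of the 5 nonescalating libraries. A gene at 0 in nonescalating libraries needed 10 counts in all 3 saline libraries. A mean log2 CPM under 2 held for 74 of the higher and 22 of the lower genes, and the same filter bears on these counts. Groups did not overlap for 174 higher genes (1.34%) and 180 lower genes (1.38%). In each direction 1 of the 56 arrangements of the 8 libraries separates the groups, a share of 0.0179, which neither count exceeds. The median log2 fold change over all genes was -0.03. limma voom with quality weights made 0 calls, with 379 genes at an unadjusted p under 0.05. DESeq2's Wald test, in contrast, called 17 genes, 12 higher and 5 lower. Of the higher calls, 3 had 0 counts in all saline libraries. All the higher calls except Trpc5 had under 10 counts in every saline library. They passed the count filter only through nonescalating libraries.

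Leaving out library 1813 gave 0 calls as well, with 255 higher and 331 lower genes at an unadjusted p under 0.05, of which 206 and 239 were among the genes found with all 8 libraries. Without saline replicate 1, 104 of the 265 higher and 131 of the 372 lower genes remained, without saline replicate 3, 117 and 239, and without saline replicate 4, 168 and 336. The fit without saline replicate 4 had 562 higher and 574 lower genes and 1 call, Aars.

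**Figure D2:**
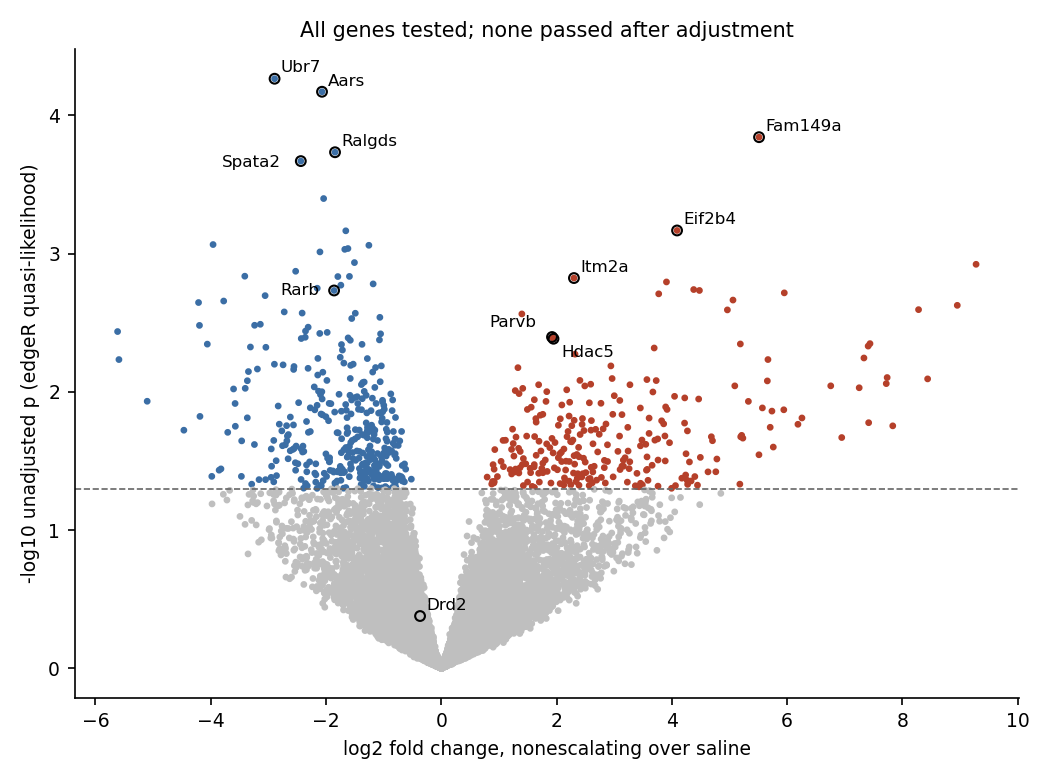
Each point is 1 of the 13026 genes tested, with the log2 fold change of nonescalating over saline on the horizontal axis and -log10 of the unadjusted edgeR p on the vertical axis; red and blue points are the 265 higher and 372 lower genes past the dashed line at 0.05. No gene passed after adjustment, and Drd2 lies among the grey points.

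The lower genes with the smallest p were led by Ubr7, which encodes an E3 ubiquitin ligase of the UBR box family. Ubr7 (chromosome 12, 102757967 to 102777707, plus strand, mm10) had 4.86, 6.20, 14.9, 12.6 and 12.8 CPM in nonescalating replicates 1 to 5, against 42.8, 85.6 and 99.6 CPM in saline replicates 1, 3 and 4. Every nonescalating library lay below every saline library, on 17 to 47 counts in nonescalating and 193 to 718 in saline libraries. The log2 fold change was -2.89 with a standard error (SE) of 0.61 and an edgeR adjusted p of 0.439, and over the 22 alternatives it ran from -3.26 to -1.85. Among the 7 UBR box genes it was the only one at an unadjusted p under 0.05, where 2.86% of all genes were lower. Ubr4, a giant ligase of the same family, had 384 to 844 CPM in nonescalating and 532 to 1343 CPM in saline libraries.

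Aars, the alanyl-tRNA synthetase that loads alanine onto its tRNA (chromosome 8, 111033144 to 111057664, plus strand), had 90.9, 31.4, 25.4, 43.9 and 56.9 CPM in nonescalating replicates, against 293, 270 and 63.8 CPM in saline replicates. The groups overlapped through nonescalating replicate 1 and saline replicate 4. Its log2 fold change was -2.07 (SE 0.44, edgeR adjusted p = 0.439). Leaving out saline replicate 4 made it -2.50 (SE 0.43) with an adjusted p of 0.0485, the only edgeR call in any of the fits that left out 1 library. The range of adjusted p over its 22 alternatives was 0.0187 to 0.9999.

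Ralgds and Spata2 followed, each without overlap between groups. Ralgds activates the small GTPase Ral downstream of Ras, and its levels were 34.7, 61.3, 55.9, 30.9 and 55.0 CPM in nonescalating replicates, against 109, 283 and 119 CPM in saline replicates. The log2 fold change was -1.84 (SE 0.43, edgeR adjusted p = 0.557), and -1.26 without saline replicate 3. Spata2, an adaptor that brings the deubiquitinase CYLD to the tumour necrosis factor receptor complex, had 15.2 to 66.4 CPM in nonescalating and 126 to 442 CPM in saline libraries. Its log2 fold change was -2.44 (SE 0.58, edgeR adjusted p = 0.557), and -1.63 without saline replicate 1, where it was highest. Ubr7, Aars, Ralgds and Spata2 were also 4 of the 5 lower genes called by DESeq2. The fifth was F2r, the thrombin receptor PAR1, with 0.365 to 3.32 CPM in nonescalating and 7.51 to 49.0 CPM in saline libraries.

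The other lower genes ranked by p were Gabpb2, Cacul1, Rgs17, Snx12, St13, Zfyve28, Ets2 and Nt5e. Rgs17, a regulator that shortens signalling of Gi-coupled receptors such as the D2 receptor, had 42.0 to 157 CPM in nonescalating and 140 to 315 CPM in saline libraries (log2 fold change -1.26, SE 0.34). St13 helps Hsp70 hold its clients, and it had 19.1 to 46.4 CPM in nonescalating and 49.8 to 140 CPM in saline libraries with no overlap. Nt5e, the ecto-5'-nucleotidase CD73 that makes adenosine outside the cell, had 0.729 to 12.5 CPM in nonescalating and 26.2 to 55.8 CPM in saline libraries, again with no overlap. These 12 genes were picked by p in the same libraries, and the groups did not overlap for 7 of them, against 1.38% of all genes. In 7 of the 12 genes saline replicate 1 was the highest of the 8 libraries, and in 6 library 1813 was the lowest.

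Some of the higher genes with the smallest p were near the floor in saline. Fam149a, a gene of little known function, had 14.1, 5.11, 36.2, 12.2 and 15.7 CPM in nonescalating replicates, against 0.222, 0.477 and 0.297 CPM in saline replicates. These saline levels rest on 1, 4 and 1 counts, and the nonescalating levels on 14 to 122. The log2 fold change was 5.51 (SE 1.26, edgeR adjusted p = 0.557). Eif2b4, a subunit of the exchange factor that recycles the translation initiator eIF2, had 6.98 to 31.4 CPM in nonescalating and 0.443 to 1.48 CPM in saline libraries, on 2 to 7 saline counts a library. Dph7 and Haus5 had the same form, with 3 to 4 and 3 to 8 counts in saline libraries. Like Fam149a and Eif2b4, both passed the count filter only through nonescalating libraries. DESeq2 called Fam149a (DESeq2 adjusted p = 0.000595), Eif2b4, Dph7 and Haus5, and also Trpc5.

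Among higher genes with ample counts, Hdac5, Parvb and Itm2a did not overlap between groups. Hdac5 encodes a class IIa histone deacetylase that shuttles between cytoplasm and nucleus with neuronal activity and has been studied in cocaine reward in the accumbens. It had 909, 458, 592, 445 and 308 CPM in nonescalating replicates, against 119, 147 and 156 CPM in saline replicates. The mean was 543 ± 228 CPM in nonescalating and 141 ± 19.2 CPM in saline libraries (SD), a log2 fold change of 1.95 (SE 0.62, edgeR adjusted p = 0.936). Leaving out single libraries gave 1.68 to 2.10.

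Parvb, beta-parvin, links integrins to actin and had 228, 185, 144, 200 and 120 CPM in nonescalating replicates, against 43.2, 30.5 and 65.5 CPM in saline replicates. Its log2 fold change was 1.92 (SE 0.61, edgeR adjusted p = 0.936). Itm2a, a membrane protein of the BRICHOS family, had 39.7 to 127 CPM in nonescalating and 13.7 to 20.6 CPM in saline libraries. Trpc5, a calcium-permeable channel of neurons, had 91.6, 8.02, 53.0, 153 and 14.2 CPM in nonescalating and 3.55, 3.34 and 5.93 CPM in saline replicates, and varied more than 10-fold among nonescalating libraries. Exoc4, Pstpip2 and Lss complete the 12, of which 9 did not overlap between groups, against 1.34% of all genes. These 12 were likewise picked by p in the same libraries. Prr14 was carried by nonescalating replicate 3, which had 1029 CPM against 28.3 to 81.7 CPM in the other 4 and 8.30 to 32.8 CPM in saline libraries.

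**Figure D3:**
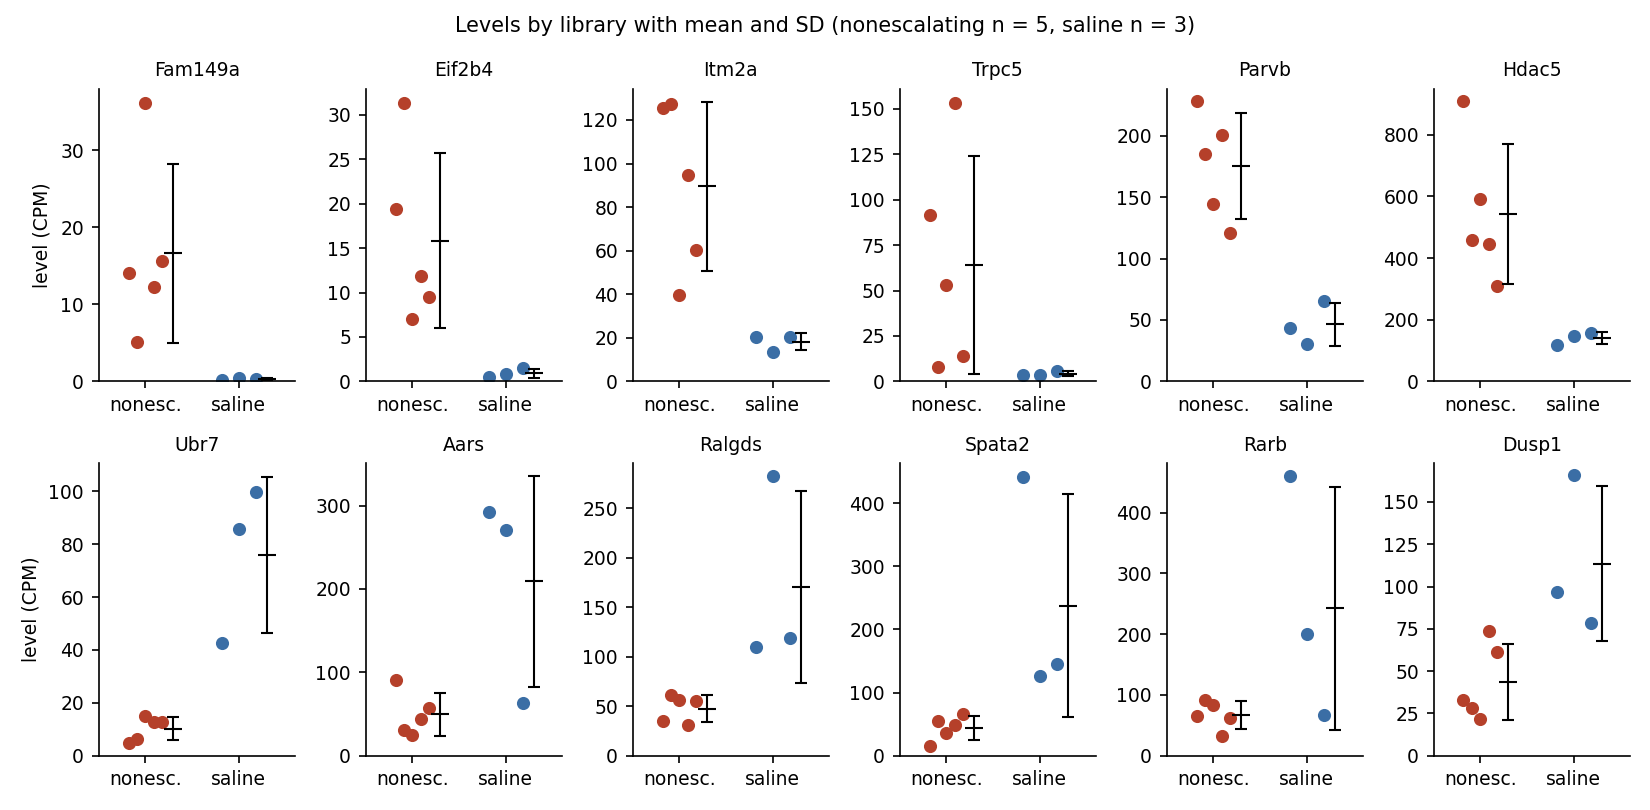
CPM of 6 genes higher (upper row) and 6 genes lower (lower row) in nonescalating libraries; each point is 1 library, nonescalating (red, n = 5) left of saline (blue, n = 3), and black bars give mean and SD. Levels overlap between groups for Aars and Rarb among the 12 genes shown, and saline replicates differ widely for Spata2 and Rarb.

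Described by role, most lists of neuronal genes had medians below 0, and the astrocyte and oligodendrocyte lists had medians above it. Each list is given by its counts and median, beside 6316 of 13026 genes positive and a median of -0.03 over all genes. The D2 marker list had 3 of 9 members positive and a median log2 fold change of -0.27, and the shared medium spiny neuron list 3 of 17 and -0.21. Dopamine and cAMP signalling genes had 8 of 32 positive and a median of -0.21. Without library 1813 these medians were 0.01, 0.06 and -0.03, and without saline replicate 3 they were 0.36, 0.37 and 0.17. The D1 marker list, with 2 of 9 positive and a median of -0.57, was at -0.40 without library 1813, -0.38 without saline replicate 3 and -0.11 (4 of 9 positive) without saline replicate 4.

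Single receptors and enzymes of the signalling lists are given next. Gria1, an AMPA receptor subunit, was at 428, 346, 406, 134 and 398 CPM in nonescalating and 617, 787 and 393 CPM in saline replicates (log2 fold change -0.81, SE 0.34). Gabra3, a GABA-A receptor subunit, was at 10.9 to 37.6 CPM in nonescalating and 29.9 to 169 CPM in saline libraries (-1.58, SE 0.58). Saline replicate 1 was highest for Gabra3, and without it the log2 fold change was -0.42. In the glutamate and GABA lists these genes were the ones lower at an unadjusted p under 0.05, 1 in each list of 31 and 19 tested genes. Over all genes, 2.86% were lower at that threshold. Gria1 and Gabra3 both had an edgeR adjusted p of 0.982 or more. Rgs14, a regulator of G protein signalling in the dopamine list, was higher at that threshold, with a log2 fold change of 2.65, which was 1.47 without nonescalating replicate 3.

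Potassium channel genes had 12 of 35 positive and a median of -0.26, with 2 members higher and 2 lower at an unadjusted p under 0.05, where 2.03% of all genes were higher and 2.86% lower. Without saline replicate 3 the list had 22 of 35 positive and a median of 0.09. Kcnq5, a subunit of voltage-gated potassium channels, was 1 of the lower members. It had 123, 86.1, 70.2, 42.3 and 104 CPM in nonescalating and 124, 310 and 133 CPM in saline replicates, without overlap (log2 fold change -1.15, SE 0.41, edgeR adjusted p = 0.982). Nonescalating replicate 1 and saline replicate 1 nearly touch for Kcnq5, and without saline replicate 3 its log2 fold change was -0.59.

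Immediate early genes, which neurons switch on within minutes of activity, had 7 of 20 tested members positive and a median of -0.38. That median was -0.13 without library 1813 and 0.05, with 10 of 20 positive, without saline replicate 3. Fos was below the count filter. Dusp1, a phosphatase that turns off MAP kinases, was the member at an unadjusted p under 0.05, where 2.86% of all genes were lower. It had 32.8, 28.4, 21.9, 73.6 and 61.2 CPM in nonescalating and 96.8, 166 and 78.3 CPM in saline replicates. The groups did not overlap, and library 1813 was the highest of the nonescalating libraries. The log2 fold change was -1.39 (SE 0.49, edgeR adjusted p = 0.982), and -1.66 without library 1813.

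Retinoid receptors, which act in pairs of RAR and RXR and are enriched in striatum, had 3 of 11 tested list members lower at an unadjusted p under 0.05, where 2.86% of all genes were. Rarb, the retinoic acid receptor beta, had 65.9, 91.2, 82.9, 31.7 and 62.6 CPM in nonescalating replicates, against 460, 200 and 67.6 CPM in saline replicates. Its groups overlapped, and its log2 fold change was -1.86 (SE 0.54, edgeR adjusted p = 0.874) with all libraries and -1.004 without saline replicate 1. Rxrg, its partner RXR gamma, had 30.2, 45.9, 26.03, 9.92 and 42.7 CPM in nonescalating and 70.5, 95.5 and 72.7 CPM in saline replicates, with no overlap (-1.36, SE 0.59), and its unadjusted edgeR p was 0.067 without library 1813. Rxrb had 13.7 to 35.5 CPM in nonescalating and 22.8 to 131 CPM in saline libraries (-1.36, SE 0.61), and its log2 fold change was -0.47 without saline replicate 3. The list median was -0.24 with all libraries and -0.87 without nonescalating replicate 1, 3 or 4.

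Translation and protein turnover genes showed no common direction. Of 20 aminoacyl-tRNA synthetases, 11 were positive and the median was 0.11. Aars and Nars were the members lower at an unadjusted p under 0.05, where 2.86% of all genes were. Nars, the asparaginyl enzyme, had 51.3 to 176 CPM in nonescalating and 121 to 354 CPM in saline libraries (log2 fold change -1.30, SE 0.48). Amino acid and stress response genes had 14 of 23 positive and a median of 0.12. Shmt2, the mitochondrial serine hydroxymethyltransferase, was higher without overlap, at 11.8 to 46.0 CPM in nonescalating and 0 to 5.93 CPM in saline libraries. Cytosolic ribosomal proteins had 30 of 79 positive (median -0.14) and proteasome subunits 12 of 37 (median -0.22). Without saline replicate 3 the ribosomal median was -0.01 and the proteasome list had 24 of 37 positive and a median of 0.26.

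Oxidative phosphorylation genes had 30 of 77 positive and a median of -0.15, which was -0.01 without library 1813 and 0.24 without saline replicate 3. Ndufb5, a complex I subunit, had 5.71 to 22.3 CPM in nonescalating and 30.8 to 49.4 CPM in saline libraries with no overlap (log2 fold change -1.63, SE 0.63). Cox6c of complex IV had 30.7, 38.3, 27.6, 10.7 and 27.0 CPM in nonescalating and 56.3, 93.2 and 32.9 CPM in saline replicates. Ndufs8 was at 16.02 to 92.7 CPM in nonescalating and 12.7 to 292 CPM in saline libraries, so saline spanned the whole nonescalating range. Its log2 fold change was -1.63 with all libraries and -0.74 without saline replicate 1. These 3 of 77 genes were lower at an unadjusted p under 0.05, where 2.86% of all genes were.

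Astrocyte markers had 12 of 14 positive and a median of 0.53, which was -0.02 without library 1813. Oligodendrocyte markers had 12 of 13 positive and a median of 0.93, which was 0.83 without that library and 0.71 to 1.61 without single saline libraries. It was lower with a saline library and library 1813 both left out, at 0.35 without 1806 and 1813 and 0.49 without 1808 and 1813. Mal, a myelin membrane protein, had 75.3, 111, 38.7, 143 and 98.2 CPM in nonescalating replicates, against 20.6, 29.5 and 70.0 CPM in saline replicates (log2 fold change 1.22, SE 0.57). Its levels overlapped between groups, and its edgeR adjusted p was above 0.99. Oligodendrocyte precursor markers had 3 of 5 positive and a median of 0.02. Microglia markers had 5 of 8 positive and a median of 0.15, which ran from -0.58 to 0.65 over the fits without 1 library. Their member Csf1r had a log2 fold change of -3.19, and of -0.52 without saline replicate 1. Mean log2 CPM of the oligodendrocyte list was 4.39, 3.46, 5.07, 5.73 and 4.39 in nonescalating replicates, against 2.85, 3.25 and 4.59 in saline replicates.

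Endothelial markers had 13 of 14 positive and a median of 0.30, which was -0.13 (3 of 14 positive) without saline replicate 3 and 1.02 (14 of 14 positive) without saline replicate 1. Vwf, the clotting factor carrier of endothelium, had 935, 694, 254, 965 and 338 CPM in nonescalating and 394, 55.7 and 303 CPM in saline replicates. The interferon and MHC class I list had 4 of 16 positive and a median of -0.44, which became 0.93 without saline replicate 1. In chromatin regulators, 12 of 32 were positive with a median of -0.14. Hdac5 was the member higher at an unadjusted p under 0.05, where 2.03% of all genes were. Kdm6b, a demethylase of histone H3 lysine 27, was the member lower, where 2.86% of all genes were. Its levels were 46.1 to 69.8 CPM in nonescalating and 33.6 to 275 CPM in saline libraries. Without saline replicate 1 the list median was 0.07 and the log2 fold change of Kdm6b was 0.22, against -1.13 with it.

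**Figure D4:**
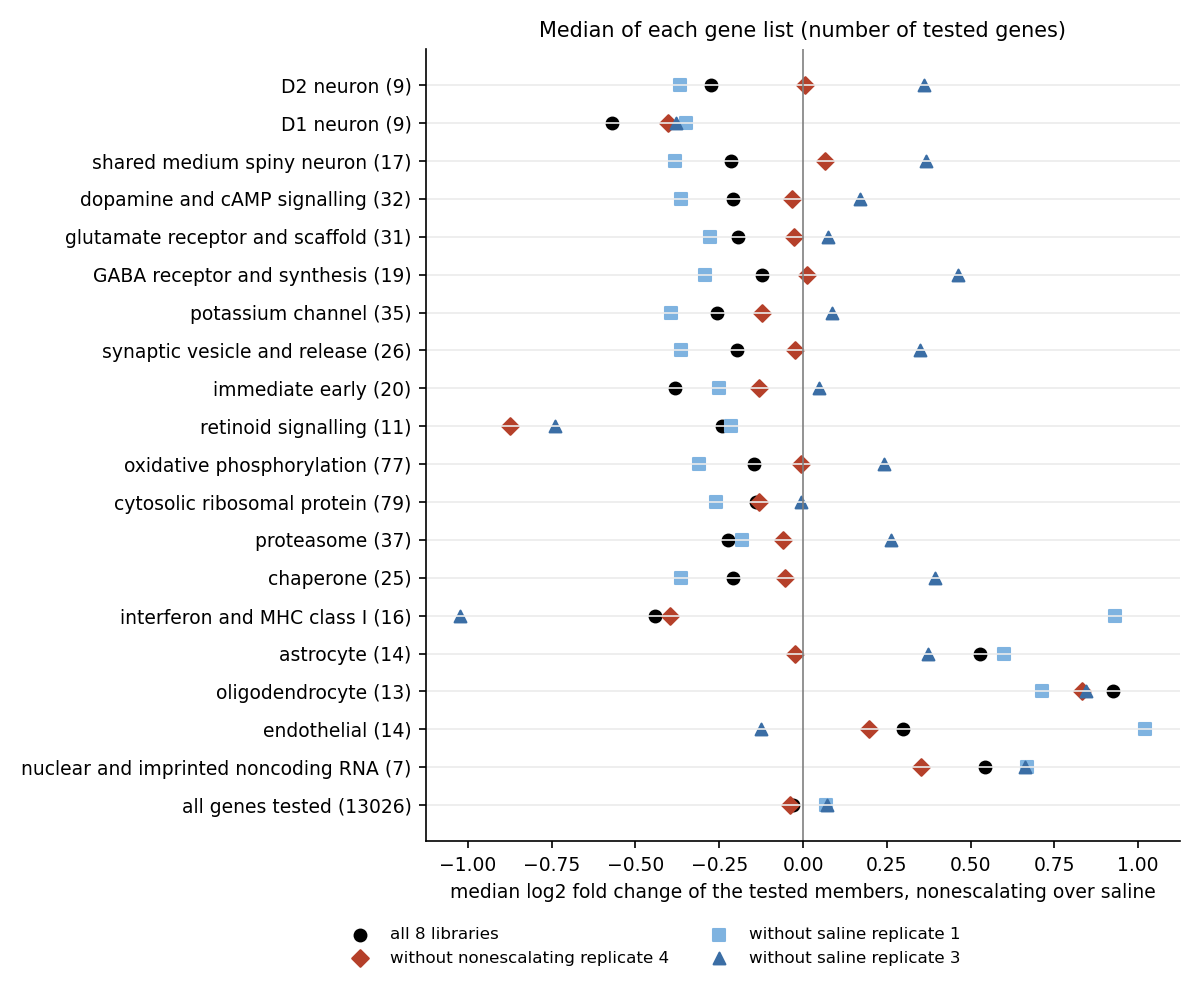
Median log2 fold change of nonescalating over saline for the tested members of 19 gene lists and for all 13026 genes, with all 8 libraries (black) and with 1 library left out (nonescalating replicate 4, red; saline replicate 1 or 3, blue). D2 and shared medium spiny neuron medians lie at -0.27 and -0.21 with all libraries, near 0 without nonescalating replicate 4 and at 0.36 and 0.37 without saline replicate 3, while the oligodendrocyte median stays between 0.71 and 0.93 in these 4 fits.

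Whether the effect of nonescalating cocaine differed without and after withdrawal was asked with an interaction term in the same fit. It called 0 of 13026 genes (0%), with a smallest adjusted p above 0.99 and 433 genes at an unadjusted p under 0.05. The comparison after withdrawal (nonescalating withdrawal, n = 8, over saline withdrawal, n = 6) also had 0 calls, with 302 genes at an unadjusted p under 0.05. Those groups include libraries of a second set, and the fit had a term for it.

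Levels of the leading genes in the other groups place the saline libraries in context. Ubr7 ran from 21.9 to 57.8 CPM in the 2 escalating libraries, from 5.54 to 52.9 CPM in nonescalating withdrawal and from 23.4 to 46.9 CPM in saline withdrawal. All nonescalating libraries lie below both the saline and the saline withdrawal range, and inside the nonescalating withdrawal range apart from replicate 1. Aars was at 29.3 to 118 CPM in nonescalating withdrawal and 65.4 to 154 CPM in saline withdrawal, so its 2 highest saline values exceed every other library. Rarb was at 12.7 to 157 CPM in nonescalating withdrawal and 59.5 to 212 CPM in saline withdrawal.

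Hdac5 was at 13.5 to 350 CPM in nonescalating withdrawal and 136 to 1085 CPM in saline withdrawal. Its log2 fold change after withdrawal was -1.44 (SE 0.42), against 1.95 without withdrawal, and the difference of 3.39 (SE 0.77) had an edgeR adjusted p above 0.99 over all genes. Set against saline withdrawal of library set 1 in place of saline, the nonescalating libraries gave a log2 fold change of -0.19. Dusp1 reached 95.5 and 220 CPM in the escalating libraries, above all nonescalating libraries. Fam149a was at 0.483 to 14.7 CPM in saline withdrawal, a range that overlaps the nonescalating libraries.

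**Figure D5:**
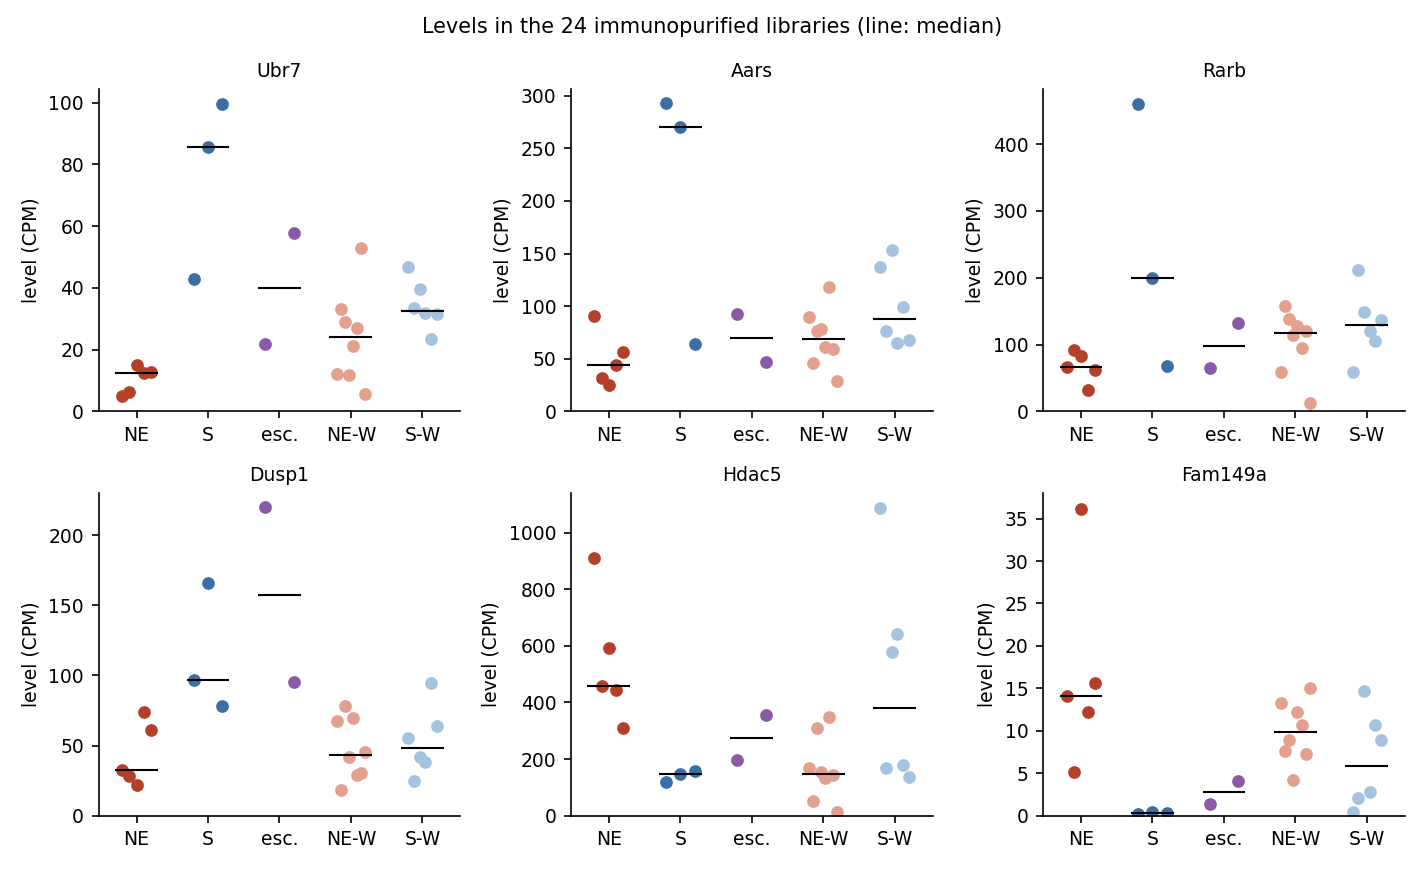
CPM of 6 genes in the 24 immunopurified libraries, by group: nonescalating (NE, n = 5), saline (S, n = 3), escalating (esc., n = 2), nonescalating withdrawal (NE-W, n = 8) and saline withdrawal (S-W, n = 6); black lines are medians. Ubr7 is low in nonescalating libraries, Aars and Rarb are high in some saline libraries, and Hdac5 in saline withdrawal spans 136 to 1085 CPM.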

How the data were processed

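The deposited files hold raw counts of reads per gene symbol, 1 file a library, which the authors made by aligning to mm10 with STAR 2.0.0e and counting with HTSeq, per the submitters' processing notes. Which annotation and strand option HTSeq used is not given in the sources used here, and reads of genes that overlap or resemble each other may be split between them. Left out of sizes and tests were 5 HTSeq summary rows and a row of unknown genes. Library sizes are over the 31735 genes listed in every file, which hold at least 99.0% of gene counts in the 8 libraries.

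With R 4.3.3 and edgeR 4.0.16, the 24 immunopurified libraries were fitted together (group and library set as terms, TMM factors, robust quasi-likelihood test), over genes with 10 or more counts in at least 3 of the 8 libraries; p-values were adjusted by Benjamini-Hochberg, with a threshold of 0.05. SE was derived from the fold change and its F statistic. CPM use TMM factors; a list score is the average log2 CPM of its members (prior count 2). The test was tried on simulated data. Gene positions are from GENCODE M21 (GRCm38, the same assembly as mm10).

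Members, the 35 lists and the rule for named genes were chosen with earlier results of these data known. The rule takes the 12 smallest p in each direction among genes averaging 2 or more log2 CPM, up to 3 members of each list with the smallest p in the direction of its median, its 2 most abundant members, and preset markers. Genes named for library 1813 or 1806, F2r and Rgs14 are outside it, chosen after their values were seen. Alternatives were limma voom 3.58.1, DESeq2 1.42.0, other scaling and filters, fewer libraries, covariates, a replicate block, saline withdrawal as reference and each library left out. Replicates of 1 group differed far beyond counting noise, with a chi-square of at least 25.9 per degree of freedom, so no library was counted as a repeat. Some named genes are not reported here.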

Additional observations from a re-analysis of the deposited data

Results flagged for a closer look

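In the 5 nonescalating libraries, 2 of 89 values checked (gene levels, list scores and depth measures) had 1 library far from the others by Dixon's criterion, which flags about 1 group in 20 by chance. Gria1 was at 134 CPM in replicate 4 (library 1813) and at 346 to 428 CPM in the other 4 nonescalating libraries. Cox6c was at 10.7 CPM in the same replicate and at 27.0 to 38.3 CPM in the other 4. Both are lowest in the library in which Drd2 was 247 CPM; the part of its marker levels in these 2 values was not tested.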

How the results depend on the processing

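The call count was 0 with all alternatives except DESeq2 (17) and the fit without saline replicate 4 (1), so the range over left-out libraries was 0 to 1. Genes at an unadjusted p under 0.05 numbered 637, against 379 with limma voom, 1068 with filterByExpr, 1502 with no filter, 364 with only the 8 libraries and 326 against saline withdrawal of set 1; left-out libraries gave 577 to 1136. With the replicate block, 0 genes were called and 593 had an unadjusted p under 0.05. Same-numbered libraries correlated at -0.10, 0.31 and 0.16 in their deviations from group means, so the numbers are not shown to pair them. Genes without overlap numbered 354, and 498 without nonescalating replicate 4. This count cannot fall when a library is left out, whichever it is, so the rise says nothing about replicate 4.

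Of the 50 genes followed through 22 alternatives, 35 kept their direction in each. Against saline withdrawal, log2 fold changes turned for Cacul1 (0.18), Hdac5 (-0.19), Lss (-0.15), Rxrb (0.43), Shmt2 (-0.25), Ndufs8 (0.12), Csf1r (0.43) and Ubr4 (0.19). Without libraries 1808 and 1813, left out together after the data were seen, they turned for Drd2 (0.17), Adora2a (0.66), Penk (0.82), Malat1 (-0.67) and Ppp1r1b (0.47), and without libraries 1806 and 1813 for Adora2a (0.067), Psmb9 (0.97) and Kdm6b (0.29). The glial covariate turned Adora2a (0.28) and Penk (0.12), the no-feature covariate Malat1 (-0.025), the replicate block Adora2a (0.084) and limma voom Ubr4 (0.018). Over left-out libraries the range was -0.41 to 0.38 for Adora2a, -0.64 to 0.54 for Penk, -0.25 to 0.90 for Malat1, -5.24 to 0.92 for Psmb9, -0.89 to 0.19 for Ppp1r1b, -1.58 to 0.22 for Kdm6b and -0.76 to 0.0094 for Ubr4. Leaving out or exchanging libraries shows only that a value depends on them, and the cause of these turns was not tested. At 3 saline libraries the median SE of a log2 fold change was 0.81, and levels near 1 CPM rest on a few counts.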
